A study of Mus musculus with 3 samples.

Results

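The platelet-derived growth factor (PDGF) family of the mouse comprises 4 ligand genes, *Pdgfa*, *Pdgfb*, *Pdgfc* and *Pdgfd*, and 2 receptor tyrosine kinase genes, *Pdgfra* and *Pdgfrb*. The PDGF receptor-like gene *Pdgfrl* was taken with them, since its product resembles the extracellular part of the receptors. These 7 genes were chosen by symbol as a family, although earlier results of these data were known. All 7 were found among the 31447 genes of the FGF18 table and the 31691 genes of the TGFβ1 table. RNA was measured in hepatic stellate cells (HSCs), liver pericytes that store vitamin A, isolated by density gradient from wild-type female C57BL/6 mice more than 24 weeks old, with cells of more than 1 mouse usually pooled. After 24 h of starvation in medium with 0.2% FBS, the cells received recombinant human FGF18 at 100 ng/mL or TGFβ1 at 1 ng/mL, or were left untreated, each for 24 h.

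PDGF ligands are secreted as disulfide-linked dimers. The A and B chains are trimmed by furin-like proprotein convertases inside the cell, whereas the C and D chains carry an N-terminal CUB domain that must be cut off outside the cell before they can bind. Ligand binding pairs receptor chains, which phosphorylate each other and recruit adaptors such as GRB2, the phosphatase SHP2 and PI3-kinase. PDGFRα binds the A, B and C chains, and PDGFRβ binds the B and D chains. In liver, PDGFRβ is a classical marker of activated HSCs, and PDGF-B and PDGF-D are known as mitogens of these cells.

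The deposited level of each gene is the authors' mean over the libraries of a condition, in TPM, the share of a gene in all transcripts, which is corrected for gene length so that levels can be compared between genes. Values of single libraries were not analysed here, and the authors' own statistics were not used, so no level below carries an error, no difference was tested, and differences were not set against the spread between replicates. Ratios are log2 ratios of (TPM + 1), which understate differences of low genes, and a gene is called higher or lower where this ratio reached 1.5-fold and its mean over both conditions was at least 1 TPM. The 12 HSC markers were all detected. Their summed level was 4366 TPM with FGF18, 5463 TPM with TGFβ1 and 9033 TPM in untreated cells, and *Lrat*, the enzyme that esterifies vitamin A, stood at 61.6 TPM with FGF18 and 43.9 TPM with TGFβ1, against 151 TPM in untreated cells. *Dcn*, a matrix proteoglycan gene, made up most of the HSC marker sum, and without it the other 11 markers summed to 1705 TPM with FGF18 and 1187 TPM with TGFβ1, against 2011 TPM in untreated cells. Markers of other cells were present as well. Those of liver endothelial cells summed to 453 TPM with FGF18, 230 TPM with TGFβ1 and 577 TPM in untreated cells. In untreated cells much of this sum was *Egfl7* at 205 TPM and *Fcgr2b* at 143 TPM, against 68.3 TPM and 13.3 TPM with TGFβ1. *Pecam1* stood at 96.8 TPM with TGFβ1, against 103 TPM in untreated cells. Of the 11 endothelial markers averaging at least 1 TPM, 8 were called lower with TGFβ1 and 1 higher, beside 10.7% and 10.6% of all genes. Hepatocyte markers summed to 15.0 TPM with FGF18, 17.8 TPM with TGFβ1 and 17.3 TPM in untreated cells. The 10 macrophage markers summed to 91.7 TPM with FGF18, 51.4 TPM with TGFβ1 and 57.0 TPM in untreated cells, most of it *Cd68* at 85.0 TPM with FGF18, 43.0 TPM with TGFβ1 and 52.1 TPM in untreated cells, whereas 5 of them, including the Kupffer cell marker *Clec4f*, lay below 1 TPM in every condition.

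The members called in at least 1 comparison with untreated cells were *Pdgfra*, *Pdgfrb*, *Pdgfa* and *Pdgfd*. Of these, *Pdgfrb* had no entry among the RefSeq promoters used, so it has no window here. For *Pdgfra*, *Pdgfa* and *Pdgfd*, whose levels moved in different ways, the RefSeq promoter window (GRCm38.p6, from 250 bases before to 50 bases after the annotated start) is shown to let the regions upstream of them be compared. The *Pdgfra* window is chr5:75152001-75152300 on the plus strand, that of *Pdgfa* is chr5:138994895-138995194 on the minus strand, and that of *Pdgfd* is chr9:6168236-6168535 on the plus strand. Capitals mark a match on either strand to the GC box GGGCGG, the SMAD box CAGAC or the TATA box TATAAA.
Pdgfra: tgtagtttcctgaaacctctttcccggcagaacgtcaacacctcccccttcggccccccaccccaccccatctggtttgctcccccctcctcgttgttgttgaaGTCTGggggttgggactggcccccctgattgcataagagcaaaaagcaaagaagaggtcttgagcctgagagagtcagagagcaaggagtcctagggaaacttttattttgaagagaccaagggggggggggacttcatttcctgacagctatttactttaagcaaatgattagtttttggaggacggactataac
Pdgfa: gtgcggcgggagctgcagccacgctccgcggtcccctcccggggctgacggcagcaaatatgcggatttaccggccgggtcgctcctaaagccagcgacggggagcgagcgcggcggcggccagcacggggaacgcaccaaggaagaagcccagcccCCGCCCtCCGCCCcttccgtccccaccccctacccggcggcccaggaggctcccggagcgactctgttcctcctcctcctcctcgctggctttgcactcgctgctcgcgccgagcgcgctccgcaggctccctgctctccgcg
Pdgfd: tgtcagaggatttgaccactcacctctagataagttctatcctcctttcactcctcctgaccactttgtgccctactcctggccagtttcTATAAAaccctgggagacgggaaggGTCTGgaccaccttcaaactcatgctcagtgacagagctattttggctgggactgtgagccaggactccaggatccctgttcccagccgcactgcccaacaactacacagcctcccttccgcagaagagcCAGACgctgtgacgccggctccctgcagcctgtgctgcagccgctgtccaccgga

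The 3 windows differ in base composition. That of *Pdgfa* has 73.3% G + C, more than 94.5% of the 32851 mouse promoters in the table, and contains 37 CpG dinucleotides. That of *Pdgfra* has 51.0% G + C with 5 CpG and that of *Pdgfd* 56.7% G + C with 8 CpG, beside a median of 52.7% over all promoters. The *Pdgfa* window holds 2 GC boxes, at positions -93 and -86 from the start, a motif found in 35.7% of all promoters. The *Pdgfra* window holds 1 SMAD box at -146, and the *Pdgfd* window holds 2, at -135 and -5, and a TATA box at -160. The *Pdgfd* positions are counted from a RefSeq start at 6168486, upstream of the GENCODE gene start at 6168584. For that window 0 GENCODE transcripts matched, so these positions hold for the RefSeq start only. The *Pdgfa* positions are counted from a RefSeq start at 138994944, inside the GENCODE gene, whose minus strand start is 138997370. For the *Pdgfa* window 2 GENCODE transcripts matched. The SMAD box occurs in 49.6% of promoters and the TATA box in 13.6%. The AP-1 motif TGANTCA (7.81% of promoters) and the ETS motif GGAAGT (23.8%) have no match in these windows. None of these motifs overlap one another in the windows shown, and a match is a description of letters, not of binding. A second RefSeq start of *Pdgfa*, at 138994281, has a window of 67.0% G + C with 1 GC box, and *Pdgfc* has a window with 2 SMAD boxes and 1 ETS motif.

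The receptor kinases were the most abundant members in every condition, and they moved in opposite directions. *Pdgfra*, which encodes PDGFRα, stood at 140 TPM with FGF18, 53.4 TPM with TGFβ1 and 73.2 TPM in untreated cells. *Pdgfrb*, which encodes PDGFRβ, stood at 49.6 TPM with FGF18, 138.7 TPM with TGFβ1 and 66.3 TPM in untreated cells. *Pdgfra* was therefore highest with FGF18 and lowest with TGFβ1, and *Pdgfrb* showed the reverse order, while in untreated cells they lay close to each other. Among genes of at least 1 TPM, 93.8% were lower than *Pdgfra* with FGF18, 84.7% with TGFβ1 and 88.7% in untreated cells. For *Pdgfrb* these shares were 82.9% with FGF18, 94.2% with TGFβ1 and 87.6% in untreated cells. The genes lie on chr5:75152292-75198215 (plus strand, GRCm38) and on the plus strand of chromosome 18.

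**Figure D1:**
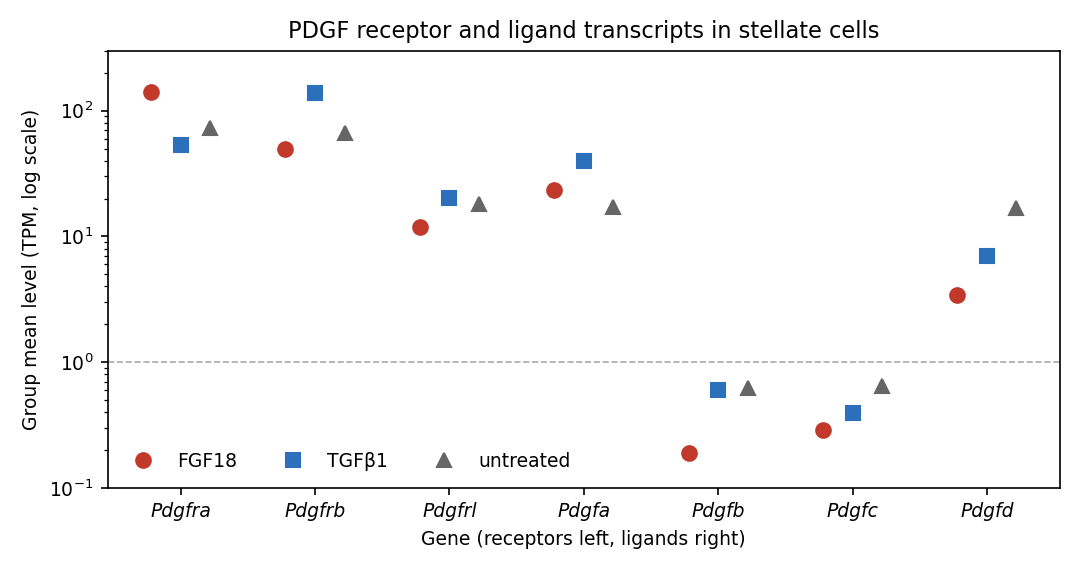
Authors' mean level of each of the 7 PDGF family members (TPM, log axis, 1 point per condition) with FGF18, with TGFβ1 and in untreated HSCs. *Pdgfra* is highest with FGF18 (140 TPM), *Pdgfrb* and *Pdgfa* are highest with TGFβ1 (138.7 and 40.2 TPM), *Pdgfd* is highest in untreated cells (16.9 TPM), and *Pdgfb* and *Pdgfc* are below 1 TPM throughout.

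Of the 5 members that reached a mean of 1 TPM in the comparison of FGF18 with untreated cells, 1 was higher and 1 was lower, beside 6.49% of all 20771 genes higher and 16.3% lower. The member that was higher was *Pdgfra*, with a log2 ratio of 0.93, which is 1.91-fold in plain TPM. Genes of like level, meaning those whose mean over both conditions was within 1.5-fold of the member's, give a scale for this difference. Of 1409 such genes, 1.21% were higher with FGF18 by at least as much as *Pdgfra*, a description chosen after the values were seen. *Pdgfrb* had a log2 ratio of -0.41 and was not called, and 11.8% of 2238 genes of its level were at least as far below their untreated value. The median log2 ratio over all 20771 genes was -0.12 and that over genes of at least 100 TPM was 0.045. After centring on the median over genes of at least 1 TPM, the genes higher with FGF18 made up 45.0% of all genes called, against 28.5% without centring, but the 2 members called stayed the same.

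With TGFβ1, 2 of 5 members were higher than in untreated cells and 1 was lower, beside 10.6% of 21324 genes higher and 10.7% lower. *Pdgfrb* was 1 of the higher members, with a log2 ratio of 1.05 and 2.09 times the untreated TPM. Of 1460 genes of like level, 1.23% were higher by at least as much. *Pdgfra* had a log2 ratio of -0.45, 0.730 times the untreated level, and was not called. The median over all genes in this comparison was -0.0032. In such bulk RNA, fewer cells of a type and less RNA per cell cannot be told apart. The HSC and endothelial marker sums were lower than in untreated cells with TGFβ1, and also with FGF18. The HSC sum was 5463 TPM with TGFβ1 and 4366 TPM with FGF18. Without *Dcn* it was 1187 TPM with TGFβ1 and 1705 TPM with FGF18. The macrophage marker sum, like *Pdgfra*, was higher with FGF18 and lower with TGFβ1 than in untreated cells, but most of it was *Cd68*. Of the 3 macrophage markers averaging at least 1 TPM in the TGFβ1 comparison, 0 were called lower. The 1 called higher was *C1qb*, at 1.93 TPM against 0.895 TPM in untreated cells. The part of these markers in the result was not tested.

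The receptor-like member was called in neither comparison with untreated cells. *Pdgfrl*, a secreted protein without a kinase domain whose function is poorly known, stood at 11.9 TPM with FGF18, 20.1 TPM with TGFβ1 and 18.0 TPM in untreated cells. Its log2 ratio was -0.56 with FGF18, just short of the 1.5-fold threshold of 0.58 in size, and 0.15 with TGFβ1. Under other pseudocounts it passed the threshold, with a log2 ratio of -0.60 at a pseudocount of 0.1. Of 3195 genes of like level, 12.5% were lower with FGF18 by at least as much, and of 3235 genes 33.4% were higher with TGFβ1 by at least as much. The gene lies on chr8:40926212-40990785, plus strand.

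**Figure D2:**
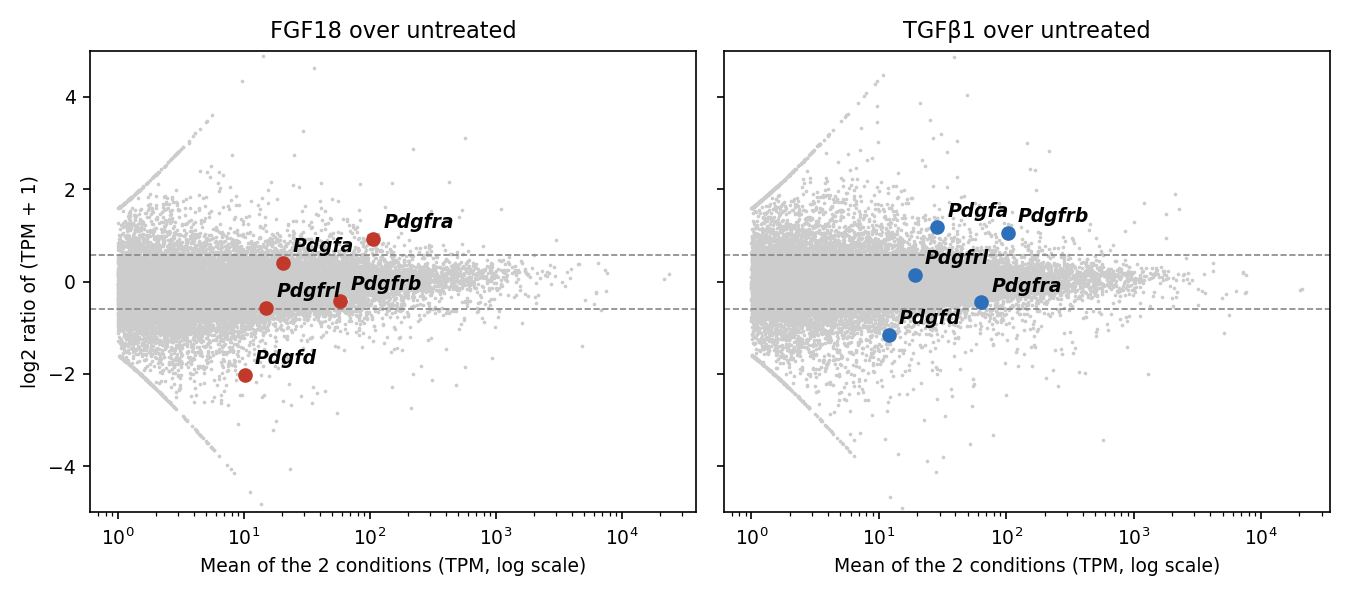
Log2 ratio of (TPM + 1) against mean level (TPM, log axis) for all genes of at least 1 TPM (grey; the slanted edges are genes at 0 in 1 condition) with FGF18 (left) and TGFβ1 (right) over untreated cells, dashed lines marking 1.5-fold, with the 5 members that reach this level drawn in colour. *Pdgfra* (0.93 with FGF18), *Pdgfrb* (1.05 with TGFβ1) and *Pdgfd* (-2.02 with FGF18) lie at the edge of the grey cloud for their level, whereas *Pdgfrl* lies within it in both comparisons with untreated cells.

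Among the ligands, *Pdgfa* was the most abundant in every condition. *Pdgfa*, which encodes the A chain and acts through PDGFRα, stood at 23.3 TPM with FGF18, 40.2 TPM with TGFβ1 and 17.2 TPM in untreated cells. It was the other member called higher with TGFβ1, with a log2 ratio of 1.17 and 2.33 times the untreated TPM, and 1.25% of 3033 genes of like level were higher by at least as much. With FGF18 its log2 ratio was 0.41, 1.35 times the untreated TPM, which was not called, and 8.77% of 3114 genes of like level were higher by at least as much. *Pdgfa* lies on chr5:138976014-138997370, minus strand. It shares 813 exonic bases with the antisense gene *6330403L08Rik*, and *Pdgfra* shares 456 with *Gm42802* and 166 with *Gm42803*. Whether reads were counted by strand is not stated, so reads of a gene and its antisense partner cannot be told apart.

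*Pdgfd*, which encodes the D chain and acts through PDGFRβ, was the member that differed most between FGF18 and untreated cells. Its level was 3.41 TPM with FGF18 and 7.04 TPM with TGFβ1, against 16.9 TPM in untreated cells. It was the 1 member called lower with each stimulus. With FGF18 the log2 ratio was -2.02 and untreated cells had 4.94 times as many TPM, a difference reached in the same direction by 0.531% of 3389 genes of like level. With TGFβ1 the log2 ratio was -1.15 and untreated cells had 2.40 times as many TPM, reached by 2.42% of 3431 genes. Both ratios use the same untreated libraries. In untreated cells *Pdgfd* (16.9 TPM) and *Pdgfa* (17.2 TPM) stood nearly level, whereas the ratio of *Pdgfa* to *Pdgfd* was 6.82 with FGF18 and 5.71 with TGFβ1, against 1.02 in untreated cells. The gene lies on chr9:6168584-6378850, plus strand, and shares no exonic base with *Ddi1*, the gene within its span.

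Markers of vascular smooth muscle, a cell type that also expresses *Pdgfd*, moved with this difference. Their summed level was 14.6 TPM with FGF18 and 20.1 TPM with TGFβ1, against 46.8 TPM in untreated cells, and all 4 were above 0 in each condition. The smooth muscle myosin gene *Myh11* stood at 7.58 TPM with FGF18 and 7.03 TPM with TGFβ1, against 27.2 TPM in untreated cells. Of the 4 markers, 3 were lower and 0 higher with FGF18, and 2 were lower and 1, *Cnn1*, was higher with TGFβ1. Of the 12 HSC markers, 5 were lower and 0 higher with FGF18, and 8 were lower and 1 higher with TGFβ1. Over all genes, 16.3% were lower and 6.49% higher with FGF18, and 10.7% were lower and 10.6% higher with TGFβ1. The part of these markers in the lower *Pdgfd* level was not tested.

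The 2 remaining ligands were at the lower end of detection. *Pdgfb*, which encodes the B chain and is made in most tissues by endothelial cells and platelets, stood at 0.191 TPM with FGF18, 0.595 TPM with TGFβ1 and 0.624 TPM in untreated cells. *Pdgfc*, which encodes the C chain, stood at 0.288 TPM with FGF18, 0.396 TPM with TGFβ1 and 0.646 TPM in untreated cells. Both were below 1 TPM in all 3 conditions and entered no count. Without values per library it is not known how many reads these levels rest on, so no fold is given for them. Endothelial markers had summed levels of 453 TPM with FGF18, 230 TPM with TGFβ1 and 577 TPM in untreated cells. The platelet chemokine *Pf4* stood at 182 TPM with FGF18, 54.2 TPM with TGFβ1 and 119 TPM in untreated cells, and *Itga2b* at 5.26 TPM with FGF18, 5.73 TPM with TGFβ1 and 3.85 TPM in untreated cells, while the other platelet genes, *Ppbp* and *Gp9*, were at most 0.217 TPM. The part of these cells in the *Pdgfb* level was not tested. *Pdgfb* lies on chr15:79995874-80014977 (minus strand) and *Pdgfc* on chr3:81036416-81214040 (plus strand), where 147 exonic bases are shared with the antisense gene *Gm16000*.

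The balance between the receptor kinases differed between conditions more than their sum did. The summed level of *Pdgfra* and *Pdgfrb* was 189 TPM with FGF18 and 192 TPM with TGFβ1, against 139 TPM in untreated cells. *Pdgfra* made up 73.8% of this sum with FGF18 and 27.8% with TGFβ1, against 52.5% in untreated cells. Thus the receptor sum was nearly the same with both stimuli while its makeup was opposite, and the ratio of *Pdgfra* to *Pdgfrb* was 2.82 with FGF18 and 0.385 with TGFβ1, against 1.10 in untreated cells.

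The ligand sum was 27.2 TPM with FGF18 and 48.2 TPM with TGFβ1, against 35.4 TPM in untreated cells. *Pdgfa* made up 85.7% of it with FGF18 and 83.3% with TGFβ1, against 48.7% in untreated cells, and *Pdgfd* made up 12.6% with FGF18 and 14.6% with TGFβ1, against 47.7% in untreated cells. Ligand makeup was thus alike with both stimuli, unlike receptor makeup. *Pdgfb* and *Pdgfc* together never exceeded a few percent of the ligand sum. The receptor sum was 6.98 times the ligand sum with FGF18 and 3.99 times with TGFβ1, against 3.94 times in untreated cells.

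**Figure D3:**
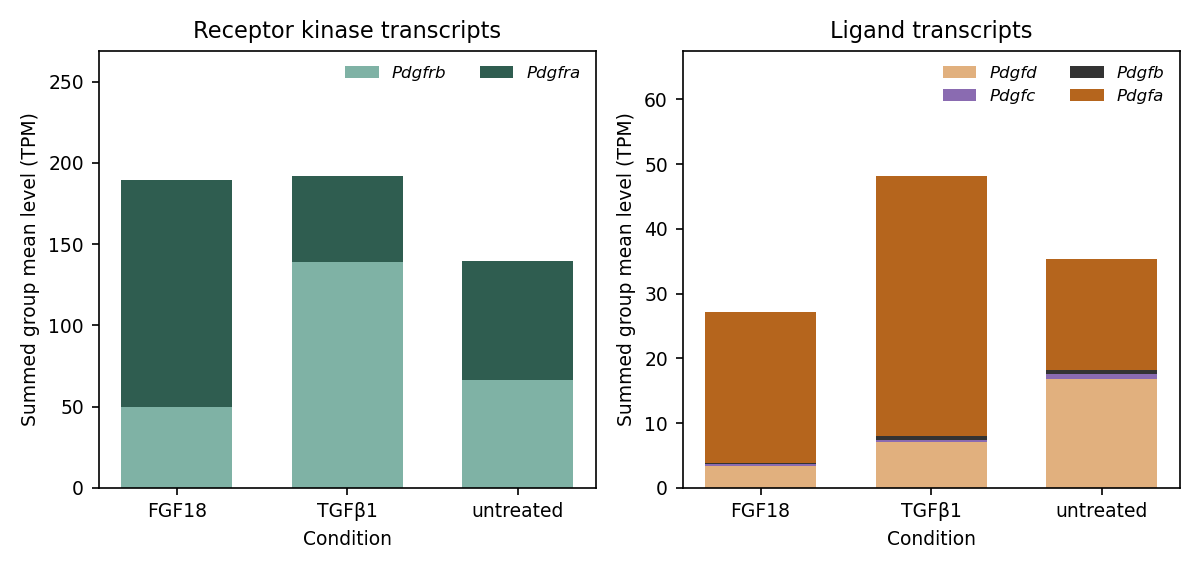
Summed level (authors' mean TPM, stacked bars from 0) of the 2 receptor kinase genes (left) and the 4 ligand genes (right) with FGF18, with TGFβ1 and in untreated HSCs. *Pdgfra* takes 73.8% of the receptor bar with FGF18 and 27.8% with TGFβ1, against 52.5% in untreated cells, and *Pdgfd* takes 12.6% of the ligand bar with FGF18 and 14.6% with TGFβ1, against 47.7% in untreated cells.

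FGF18 and TGFβ1 were then set against each other directly, which was possible because the untreated levels of all 30595 genes shared by the tables are the same in both. All 5 members of at least 1 TPM were called in this comparison, 1 higher and 4 lower with FGF18, beside 6.14% of 20572 genes higher and 14.5% lower. *Pdgfra* had a log2 ratio of 1.37, with 2.62 times as many TPM with FGF18 as with TGFβ1, and 0.461% of 1520 genes of like level were higher by at least as much. *Pdgfrb* had a log2 ratio of -1.47, with 2.80 times as many TPM with TGFβ1, and 0.256% of 1565 genes of like level were lower by at least as much. The receptor kinases thus stood farther apart between the stimuli than nearly all genes of their level. The log2 ratio was -0.86 for *Pdgfd*, -0.76 for *Pdgfa* and -0.71 for *Pdgfrl*. At a threshold of 2-fold only *Pdgfrb* of the 4 lower members was still called lower. *Pdgfd* missed 2-fold only on the (TPM + 1) scale, with 2.06 times as many plain TPM with TGFβ1 as with FGF18. For *Pdgfd*, 10.5% of 3624 genes of like level were lower with FGF18 by at least as much, so this difference was less rare than those of the receptors.

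The genes around the family were followed in 6 lists of 48 genes, all present in both tables, in the order in which the ligands meet them. Among 7 proteases that process the ligands, 0 were higher and 1 lower with FGF18. Their median log2 ratio of -0.13 was near that of all genes. With TGFβ1, 2 of the proteases were higher and 0 lower (median -0.076). *Pcsk5*, a proprotein convertase, stood at 2.17 TPM with FGF18 and 10.7 TPM with TGFβ1, against 2.48 TPM in untreated cells. *Plat*, the tissue plasminogen activator that cuts PDGF-C, stood at 9.60 TPM with FGF18 and 22.3 TPM with TGFβ1, against 7.90 TPM in untreated cells. Both were thus called higher with TGFβ1 only, with log2 ratios of 1.76 and 1.39. The 1 gene called lower with FGF18 was *St14*, whose product matriptase can cut PDGF-D, at 17.0 TPM with FGF18, 23.4 TPM with TGFβ1 and 27.2 TPM in untreated cells.

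Of 5 co-receptors and ligand-binding proteins, 4 averaged at least 1 TPM in each comparison, all but *Cspg4* (0.307 TPM with FGF18 and 0.495 TPM with TGFβ1, against 1.24 TPM in untreated cells). Of these 4, 1 was higher and 0 lower with FGF18 (median 0.17), beside 6.49% of all genes higher and 16.3% lower. With TGFβ1, 2 were higher and 1 lower (median 0.73), beside 10.6% of all genes higher and 10.7% lower. *Lrp1*, a lipoprotein receptor relative that associates with PDGFRβ, stood at 151 TPM with FGF18 and 248 TPM with TGFβ1, against 119 TPM in untreated cells. *Sparc*, a matrix protein that binds PDGF-B, stood at 1227 TPM with FGF18 and 2351 TPM with TGFβ1, against 1223 TPM in untreated cells. Like *Pdgfrb*, these were called higher with TGFβ1 and not with FGF18, whereas the co-receptor *Nrp1* was lower with TGFβ1, at 24.0 TPM against 39.8 TPM in untreated cells, and at 34.1 TPM with FGF18. *A2m*, a plasma protease inhibitor that binds PDGF, was the 1 gene higher with FGF18, at 3.81 TPM against 1.26 TPM in untreated cells, and at 2.22 TPM with TGFβ1.

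Most of the 18 effectors and adaptors that bind the activated receptors were called with neither stimulus. With FGF18 3 were higher and 0 lower (median 0.084), beside 6.49% of all genes higher and 16.3% lower. With TGFβ1 2 were higher and 1 lower (median 0.13), beside 10.6% of all genes higher and 10.7% lower. *Grb2*, the adaptor that links receptors to the Ras pathway, was called with both stimuli, at 43.9 TPM with FGF18 and 46.8 TPM with TGFβ1, against 22.7 TPM in untreated cells. *Fyn*, a Src family kinase, stood at 25.5 TPM and the adaptor *Nck2* at 55.2 TPM with FGF18, against 13.2 and 35.1 TPM in untreated cells. These 2 were called with FGF18 alone, although *Fyn* with TGFβ1 had a log2 ratio of 0.57, close to the threshold. With TGFβ1, *Ptpn11*, which encodes SHP2, was higher at 35.6 TPM against 20.5 TPM in untreated cells, and the docking protein gene *Gab1* was lower at 15.3 TPM against 25.0 TPM in untreated cells. Among 7 genes whose products down-regulate the receptors, such as the ubiquitin ligase CBL and several phosphatases, 0 were higher with either stimulus. Only *Ptprj*, a receptor phosphatase, was lower with FGF18, at 8.68 TPM against 15.0 TPM in untreated cells.

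**Figure D4:**
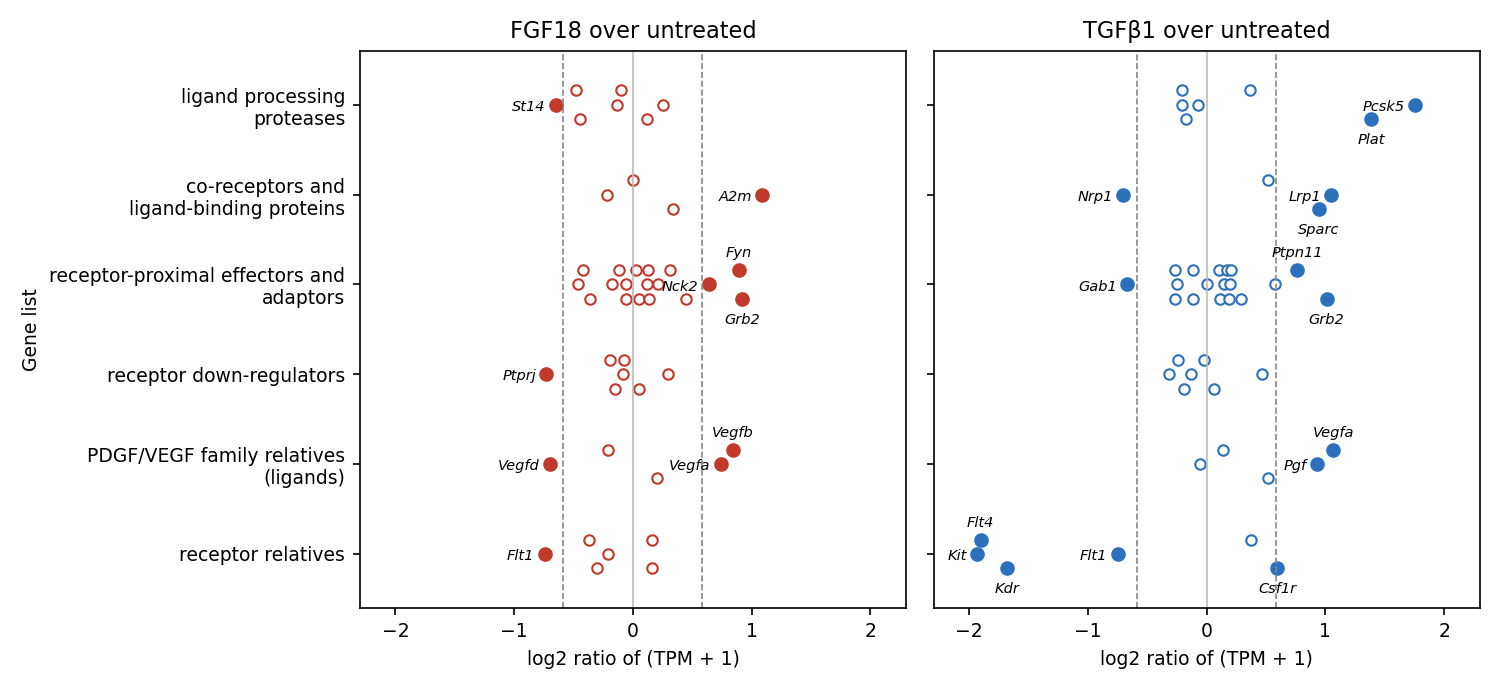
Log2 ratio of (TPM + 1) over untreated cells for the genes of 6 lists around the PDGF family, with FGF18 (left) and TGFβ1 (right). Each circle is a gene of at least 1 TPM, filled and named where it passed 1.5-fold in size (dashed lines). Most circles stay between the lines, and the largest departures are on the right, with *Pcsk5* at 1.76 and *Kit* at -1.93.

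The structural relatives of the family complete the lists. Of 5 vascular endothelial growth factor (VEGF) family ligands, which share the cystine knot fold of PDGF, 2 were higher and 1 lower with FGF18 (median 0.20). With TGFβ1, 2 were higher and 0 lower (median 0.52). The shares of all genes were 6.49% higher and 16.3% lower with FGF18, and 10.6% higher and 10.7% lower with TGFβ1. *Vegfa* stood at 56.1 TPM with FGF18 and 70.7 TPM with TGFβ1, against 33.2 TPM in untreated cells, a higher level than that of any PDGF ligand in every condition. *Vegfb* was called higher with FGF18 only, at 32.1 TPM against 17.4 TPM in untreated cells, and *Pgf* with TGFβ1 only, at 4.31 TPM against 1.79 TPM in untreated cells. *Vegfd* was lower with FGF18, at 10.8 TPM against 18.2 TPM in untreated cells.

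Among 6 receptor kinase relatives, 0 were higher and 1 lower with FGF18 (median -0.25), whereas 1 was higher and 4 were lower with TGFβ1 (median -1.22). *Kit*, the stem cell factor receptor, stood at 22.5 TPM with FGF18 and 6.13 TPM with TGFβ1, against 26.2 TPM in untreated cells. *Kdr* stood at 12.9 TPM with FGF18 and 4.61 TPM with TGFβ1, against 17.0 TPM in untreated cells. *Flt4* stood at 4.62 TPM with FGF18 and 0.849 TPM with TGFβ1, against 5.92 TPM in untreated cells. These VEGF receptor genes and *Kit* are expressed by liver endothelial cells. Of the 11 endothelial markers with a mean of at least 1 TPM, 8 were lower and 1 (*Stab2*) higher with TGFβ1. This stands beside 10.7% of all genes lower and 10.6% higher. With FGF18, 0 of these markers were lower and 0 higher, beside 16.3% and 6.49% of all genes. *Flt1*, another VEGF receptor gene, was lower with both stimuli, at 5.07 TPM with FGF18 and 5.05 TPM with TGFβ1, against 9.17 TPM in untreated cells. *Csf1r*, the receptor of macrophage colony-stimulating factor, was the 1 gene called higher with TGFβ1, at 3.94 TPM against 2.27 TPM in untreated cells. The part of endothelial RNA in the lower receptor relatives was not tested.

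Finally, each member that averaged at least 10 TPM across the 3 conditions was set beside the 9429 genes of that level, by the distance between their pairs of log2 ratios over untreated cells. This is likeness over 3 conditions only. The nearest genes to *Pdgfra* were *Rras2*, a Ras-related GTPase (distance 0.089), *Fam102a* (0.099) and *2510009E07Rik* (0.11). *Rras2* stood at 119 TPM with FGF18 and 48.7 TPM with TGFβ1, against 62.9 TPM in untreated cells, close to *Pdgfra* in level too. The nearest to *Pdgfrb* were *Gm48446* (0.037), *AC160930.2* (0.082) and *Rcn3*, which encodes a calcium-binding protein of the endoplasmic reticulum (0.10). The nearest to *Pdgfa* were *Pkd1*, which encodes polycystin-1 (0.027), *Inhba*, which encodes the activin A subunit (0.054), and *Gm42883* (0.068). *Inhba* stood at 57.6 TPM with FGF18 and 97.1 TPM with TGFβ1, against 41.6 TPM in untreated cells. The nearest to *Pdgfrl* were *Tespa1* (0.00996), *Gm3052* (0.022) and *Arhgef26* (0.026). Within a distance of 0.1 lay 2 genes for *Pdgfra*, 2 for *Pdgfrb*, 7 for *Pdgfa* and 38 for *Pdgfrl*. Fewer genes reach ratios as large as those of the first 3, so these counts also depend on ratio size. They are not a separate result on pattern. *Pdgfd*, with a mean of 9.10 TPM, fell short of the 10 TPM needed for this comparison.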

How the data were processed

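HSC RNA was amplified with a SMART-Seq kit and sequenced by the authors, who mapped the reads to GRCm38 and compared groups on RaNA-seq. Aligner, counter, annotation and versions: not given in the sources used here. Per gene, the deposited TPM values are the authors' means per condition. The study describes triplicates, and 3 times every value is a whole number of millionths, whereas the labels list 1 record per condition. Whether these came from separate isolations is not stated. The untreated column was identified as the one shared by both tables (0 of 30595 symbols differ), and 0 columns are of unknown sample. The columns sum to between 999985 and 999995 TPM, and depth per library is unknown. The tables also hold the mean of both groups and the authors' own log2 fold change, standard error, statistic, p-value and adjusted p-value, which were not used.

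Ratios of (TPM + 1) were computed in Python 3.11.15 with pandas 2.3.3 and numpy 2.4.6 and called at 1.5-fold and a mean of at least 1 TPM, a rule tested on simulated data. No value has a test, and the direct comparison of the stimuli took symbols occurring once per table. The genes named are the 7 members, each list gene called against untreated cells, and the 3 nearest genes of each member of at least 10 TPM. Markers and antisense genes were named beside them. Members and lists were chosen with earlier results of these data known, and the genes of like level and the centring on genes of at least 1 TPM were added after the values were seen. Alternatives were other pseudocounts, thresholds, filters and centrings, and TPM without mitochondrial genes. Coordinates are from GENCODE M21. RefSeq promoters (GRCm38.p6) matched 4 of the 7 members. Figures were drawn with matplotlib 3.10.9.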

Additional observations from a re-analysis of the deposited data

How the results depend on the processing

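For the 5 members of at least 1 TPM, all 75 ratios recomputed under other settings kept their direction and 72 their side of the 1.5-fold threshold. For *Pdgfb* and *Pdgfc*, which lie below 1 TPM and are never called, 29 of 30 kept their direction, the exception being *Pdgfc* between FGF18 and TGFβ1 after centring on genes of at least 1 TPM, and 8, all with a pseudocount of 0.1 or none, newly exceeded 1.5-fold in size. The 3 that crossed the threshold among the 5 members were all *Pdgfrl* with FGF18 over untreated cells, at -0.60 with a pseudocount of 0.1, -0.60 with none and -0.61 after centring on genes of at least 100 TPM, which made 2 members lower in place of 1 under each of these. At 2-fold in place of 1.5-fold, 0 members were higher with FGF18 than in untreated cells, and 1 in place of 4 was lower with FGF18 than with TGFβ1. At 2-fold the list genes higher and lower numbered 1 and 0 with FGF18 (6 and 4 at 1.5-fold), 5 and 3 with TGFβ1 (9 and 6), and 3 and 2 for FGF18 over TGFβ1 (5 and 9). With a mean of at least 10 TPM, 3 in place of 5 list genes stood higher under FGF18 than under TGFβ1. Among all genes, 485 were called higher and 1194 lower with FGF18 at 2-fold, against 1348 and 3383 at 1.5-fold, and 906 were higher and 935 lower with TGFβ1, against 2255 and 2274. For FGF18 over TGFβ1, 512 were higher and 1068 lower at 2-fold, against 1264 and 2982. A mean of at least 10 TPM left 408 higher and 704 lower with FGF18, 597 and 541 with TGFβ1, and 377 and 591 for FGF18 over TGFβ1. For FGF18 over TGFβ1, 45.7% of called genes were higher after centring on genes of at least 1 TPM, against 29.8% without, with the same number of members called. The cause of these shifts in share was not tested. The 2-fold threshold and the higher filter give lower counts by construction.

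No paired analysis was possible because the values are means of each condition. For the same reason leaving out a library and another normalization were not run, the depth behind *Pdgfb* and *Pdgfc* is unknown, and no error of a ratio was computed.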
